A study of Mus musculus with 36 samples.

Results

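The comparison described here is between SMCHD1 KO cells and their parental line, iXist-ChrX, after 7 days of monolayer differentiation with Xist induced. Its members are 4 of the 36 libraries of the series, 2 of SMCHD1 KO and 2 of iXist-ChrX, picked by the line and day in the sample labels. All 249 X-linked genes of the deposited table were read in each of the 4 libraries. Both lines are female mouse embryonic stem cells (mESCs) of a cross between the 129S and Cast strains, and in both the Xist promoter on the 129S allele was replaced with a TetOn promoter, so that doxycycline switches Xist on and the 129S chromosome becomes the inactive X (Xi) while the Cast chromosome stays active (Xa). iXist-ChrX carries SMCHD1 at its native locus, and SMCHD1 KO is a single clone, SmA3, made from it by loss of SMCHD1. RNA attached to chromatin was sequenced (ChrRNA-seq), which follows transcription rather than stable mRNA, and each deposited value is the fraction Xi/(Xi+Xa) of a gene, where 0 means that reads came from Xa alone.

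X chromosome inactivation starts when Xist RNA coats the chromosome from which it is made and brings in repressors that shut down most of its genes. SMCHD1 is a non-canonical SMC family protein with an ATPase domain that builds up on the Xi after silencing has begun, and it is known for keeping silencing and CpG island methylation in place on that chromosome and for its part in repression of some autosomal gene clusters. Genes differ in how far their silencing rests on it, and a small group, the escape genes, stays partly active on the Xi in any case. The comparison asks which genes kept more Xi transcription at day 7 in cells without SMCHD1.

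The libraries of each line are samples that the labels number as replicates but do not call separate cultures. The paper describes those of iXist-ChrX as replicate differentiations, and its ChrRNA-seq samples in general as independent repeats of a single clone. Unless stated otherwise, p-values by limma rest on the spread among libraries of the same line and day, shared over 20 differentiated libraries. No p here measures the spread between clones. Per the labels, raw reads of 1 library, iXist-ChrX replicate 1, had been lost and were recovered out of its STAR alignment, unlike those of the other 3 libraries. The columns of iXist-ChrX carry a clone name that the labels do not use and were matched by line, day and replicate number. The knockout itself could not be checked, since Smchd1 is autosomal and the table holds X-linked genes only. Neither line has an uninduced library here, so the level before silencing was read from the single uninduced library of Halo-SMCHD1, a line made from iXist-ChrX with a Halo tag on SMCHD1. The median fraction over genes was 0.518 there and 0.237 in the single Halo-SMCHD1 library taken after 24 h with doxycycline. No read numbers accompany the fractions, and the depth of each library is therefore unknown.

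Silencing was far advanced in all 4 libraries. The median fraction over the 249 genes was 0.0549 in iXist-ChrX replicate 1 and 0.0386 in replicate 2, against 0.0526 in SMCHD1 KO replicate 1 and 0.0714 in replicate 2. The lines overlapped by this measure, because SMCHD1 KO replicate 1 lay between the parental libraries and only replicate 2 lay above both. The mean of the medians was 0.0467 ± 0.0116 (SD, n = 2) in iXist-ChrX and 0.0620 ± 0.0133 (SD, n = 2) in SMCHD1 KO. The difference of 0.0153 gave p = 0.667 in a two-sided exact permutation test, where 2 libraries against 2 cannot go below 0.333. Between libraries of 1 line the median gene differed by 0.0170 in SMCHD1 KO and by 0.0144 in iXist-ChrX, which is as much as the difference between the lines.

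Genes at 0.1 or more numbered 72 and 43 in the parental libraries and 71 and 98 in the SMCHD1 KO libraries. By line means, 28 genes reached 0.1 in SMCHD1 KO alone and 8 in iXist-ChrX alone, beside 10 genes at 0.3 or more in both lines and 5 that reached 0.3 in SMCHD1 KO alone. These 5 were Nkap, Idh3g and Ssr4, whose libraries did not overlap, and Rpl10 and Zfx, whose libraries did.

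**Figure D1:**
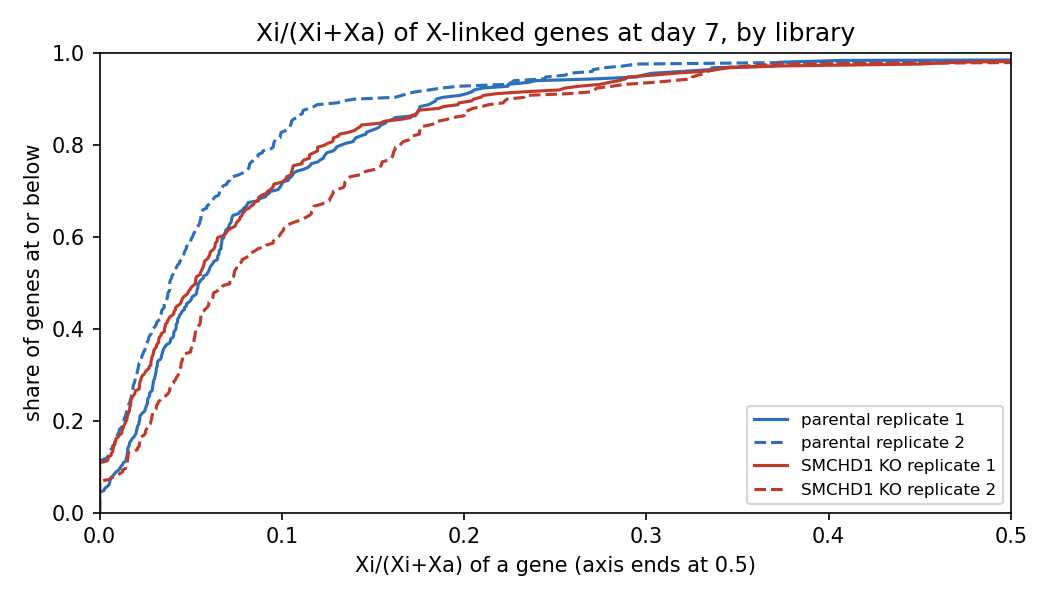
The plot shows, for each of the 4 libraries at day 7, the share of the 249 genes (y axis) at or below a given Xi/(Xi+Xa) (x axis, ending at 0.5). SMCHD1 KO replicate 2 (median 0.0714) lies to the right of the other 3, and SMCHD1 KO replicate 1 (0.0526) runs close to iXist-ChrX replicate 1 (0.0549).

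Gene by gene, the mean fraction was higher in SMCHD1 KO for 172 genes, lower for 72 and equal for 5. In 69 genes both SMCHD1 KO libraries lay above both parental libraries, which is 27.7% of the table, and in 19 genes both lay below, which is 7.63%. The other 161 genes had overlapping libraries. Differences above 0.05 were seen in 35 genes, 30 of them without overlap, and differences above 0.1 in 10 genes, all without overlap. On the low side 7 genes differed by more than 0.05, 3 of them without overlap, and none by 0.1. The count of 69 became 87 without SMCHD1 KO replicate 2, with 64 genes lower, and 151 without SMCHD1 KO replicate 1, with 29 lower. It became 138 without iXist-ChrX replicate 1, with 28 lower, and 81 without iXist-ChrX replicate 2, with 64 lower. With a library left out the rule asks for less, so both counts could only stay or rise.

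The split between higher and lower moved when libraries were centred. When the log2 odds of each library were centred on their median over genes, which removes a shift of 0.37 between the lines, 46 genes lay above in both SMCHD1 KO libraries and 66 below. The share of higher genes among those without overlap was 78.4% as deposited and 41.1% after centring. Of the 69 genes, 44 stayed above the parental libraries after centring and 25 came to overlap. Centring gives a measure relative to the other measured genes and would also remove a gain shared by all of them, so the 2 cannot be told apart.

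Flna and Kif4 were the genes that rose by the test. limma on the log2 odds, with the spread shared over 20 differentiated libraries of the table, called 2 of 249 genes at an adjusted p under 0.05, which is 0.803%. At an unadjusted p under 0.05 there were 31 higher genes, which is 12.4% of the table, and 3 lower ones. Beside the 4 libraries compared, the fit held 2 libraries each of E147A, Y353C and LRIF1 KO at day 7, 3 each of Halo-SMCHD1 and G137E at day 7, and 2 each of Halo-SMCHD1 and G137E at day 5. G137E is a line with a point mutation in the ATPase domain of SMCHD1. Its 5 libraries and the 4 of day 5 entered the estimate of the spread and no tested comparison given here.

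Flna codes for filamin A, which cross-links actin filaments, and spans chrX:74223460-74246534 (mm10, minus strand). Its fraction was 0.0305 and 0.0193 in the iXist-ChrX libraries and 0.106 and 0.135 in the SMCHD1 KO libraries. The SMCHD1 KO libraries were thus several times higher, with a gap to the nearer parental library that exceeds the spread within either line. The difference was 2.06 in log2 odds (SE 0.33, adjusted p = 0.00549 by limma).

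Kif4 codes for a kinesin that travels on chromosome arms and shapes the mitotic chromosome and the central spindle, and it spans chrX:100626064-100727271 (mm10, plus strand). The fraction was 0.0315 and 0.0168 in iXist-ChrX and 0.0829 and 0.134 in SMCHD1 KO. The groups did not overlap, and the difference was 1.93 in log2 odds (SE 0.32, adjusted p = 0.00549 by limma). In Halo-SMCHD1 at day 7, a line not used in the contrast, the mean fraction was 0.0229 for Flna and 0.0241 for Kif4. The uninduced Halo-SMCHD1 library had 0.509 for Flna and 0.517 for Kif4, so both genes were near balance before induction in that line.

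The call for both genes rested on the shared spread and on the second library of each line. Without SMCHD1 KO replicate 2 the adjusted p was 0.135 for both, without iXist-ChrX replicate 2 it was 0.0835, after centring 0.176, and in a fit of the libraries compared alone 0.419. The difference of Flna in these fits, in the same order, was 1.87, 1.82, 1.69 and 2.06 in log2 odds, and that of Kif4 was 1.57, 1.60, 1.56 and 1.93, so the direction stayed the same.

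The promoters of these genes are shown beside that of Eif2s3x, an escape gene whose libraries overlapped, because CpG islands are the sequence with which SMCHD1 is known to be linked on the Xi. Each sequence runs 5′ to 3′ on the strand of the gene, from 250 bases before to 50 after the RefSeq start (GRCm38.p6, the build of the mm10 coordinates), with every CpG in capitals. They cover chrX:74246485-74246784 (minus strand) for Flna, chrX:100625815-100626114 (plus strand) for Kif4 and chrX:94212602-94212901 (minus strand) for Eif2s3x.
Flna: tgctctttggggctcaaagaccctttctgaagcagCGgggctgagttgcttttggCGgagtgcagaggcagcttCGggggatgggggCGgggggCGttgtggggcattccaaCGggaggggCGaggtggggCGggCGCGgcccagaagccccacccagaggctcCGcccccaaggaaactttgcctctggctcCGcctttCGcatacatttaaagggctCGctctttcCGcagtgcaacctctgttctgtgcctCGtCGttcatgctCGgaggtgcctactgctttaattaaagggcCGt
Kif4: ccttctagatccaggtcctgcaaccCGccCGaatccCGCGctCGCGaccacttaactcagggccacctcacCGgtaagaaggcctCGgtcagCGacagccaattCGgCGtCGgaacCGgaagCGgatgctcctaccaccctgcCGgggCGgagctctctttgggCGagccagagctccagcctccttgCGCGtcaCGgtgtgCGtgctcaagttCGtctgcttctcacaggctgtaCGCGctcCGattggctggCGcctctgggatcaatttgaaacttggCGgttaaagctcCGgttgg
Eif2s3x: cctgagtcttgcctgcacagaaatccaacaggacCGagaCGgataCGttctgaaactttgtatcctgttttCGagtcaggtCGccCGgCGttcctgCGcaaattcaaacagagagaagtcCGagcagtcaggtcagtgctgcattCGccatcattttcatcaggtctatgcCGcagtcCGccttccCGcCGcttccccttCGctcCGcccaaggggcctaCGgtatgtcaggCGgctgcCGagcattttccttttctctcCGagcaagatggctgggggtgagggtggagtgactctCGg
The 300 bases hold 19 CpG in Flna, 28 in Kif4 and 21 in Eif2s3x. All 3 lie above the median of 17 over the 209 genes with a matched promoter, whose middle 50% ran from 10 to 22 CpG and of which 98.1% hold at least 1. The median number of CpG was 18 in the 61 higher genes with a promoter, 16 in 133 overlapping genes and 14 in 15 lower genes. Spearman's rho between the log2 odds difference and the ratio of observed to expected CpG was 0.09 across 209 genes, which are not independent replicates.

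Most of the genes with the greatest differences kept some Xi transcription in the parental line already. Ssr4, a subunit of the translocon-associated complex of the endoplasmic reticulum, had 0.135 and 0.0820 in iXist-ChrX and 0.304 and 0.343 in SMCHD1 KO. Its difference of 0.215 was the greatest of all 249 genes and did not pass the test (adjusted p = 0.180 by limma). Its neighbour Idh3g, a subunit of the mitochondrial isocitrate dehydrogenase, had 0.206 and 0.140 against 0.285 and 0.328. Both genes had no overlap between the lines, and they lie next to each other on opposite strands.

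Pin4, a peptidyl-prolyl isomerase of the parvulin family, stood higher in both lines than the others of this group. Its fraction was 0.371 and 0.271 in iXist-ChrX and 0.450 and 0.569 in SMCHD1 KO, a difference of 0.189 (adjusted p = 0.315 by limma). Nkap, a nuclear protein with roles in transcription and splicing, had 0.198 and 0.174 against 0.275 and 0.356. Igbp1, a binding partner of the catalytic subunit of protein phosphatase 2A, had 0.210 and 0.166 against 0.279 and 0.314. In all 3 the lower SMCHD1 KO library lay above the higher parental library.

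Yipf6, a membrane protein of the Golgi, came nearest to the threshold among the genes that missed it. It had 0.181 and 0.0990 in iXist-ChrX and 0.255 and 0.288 in SMCHD1 KO (adjusted p = 0.0822 by limma), and it passed with a pseudocount of 0.05, on untransformed fractions, with robust and trended variances, and without iXist-ChrX replicate 1. Slc35a2, which carries UDP-galactose into the Golgi, had 0.161 and 0.0339 against 0.218 and 0.233, so that its parental libraries differed more from each other than the nearer one did from SMCHD1 KO. Vma21, an assembly factor of the vacuolar proton pump, had 0.0805 and 0.0616 against 0.175 and 0.152.

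Emd and Taz lie just beyond Flna on the chromosome and, like it, were nearly silent in iXist-ChrX. Emd codes for emerin of the inner nuclear membrane and had 0.0690 and 0.0333 in iXist-ChrX and 0.120 and 0.213 in SMCHD1 KO. Taz codes for tafazzin, which remodels cardiolipin in mitochondria, and had 0.0602 and 0.0270 against 0.175 and 0.116. Neither passed the test, with an adjusted p of 0.315 by limma for both.

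Il1rapl1, a synaptic adhesion gene with a span of 1368 kb, was the exception among the 12 greatest differences. Its fraction was 0.0667 and 0.0991 in iXist-ChrX and 0.120 and 0.337 in SMCHD1 KO, so that replicate 2 carried most of the difference of 0.146. It was at 0.974 in the uninduced Halo-SMCHD1 library, far from balance, and its libraries overlapped after centring.

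**Figure D2:**
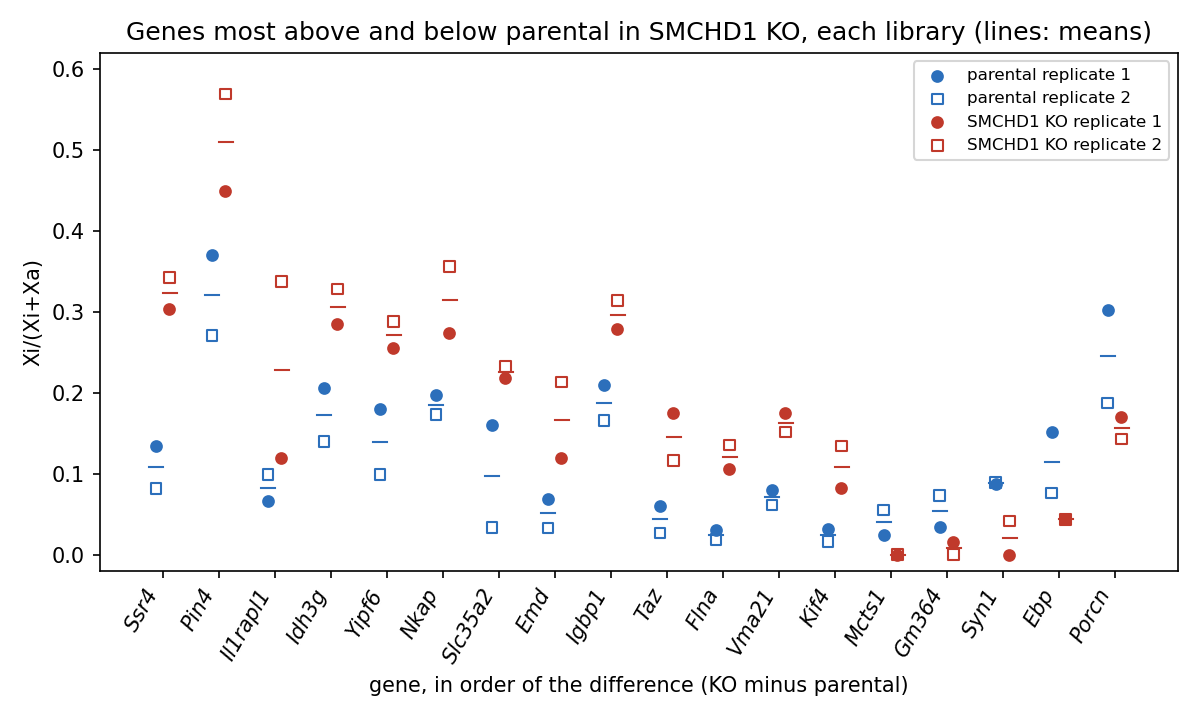
Each gene on the x axis is one of those with the greatest positive or negative difference, or with an adjusted p under 0.05, and the y axis gives its Xi/(Xi+Xa) in every library as points, with a short line at the mean of each line (n = 2). The SMCHD1 KO points lie above the parental points from Ssr4 (difference 0.215) to Kif4 and below them from Mcts1 to Porcn.

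No gene that was lower in SMCHD1 KO passed the test. Porcn, which adds a fatty acid to Wnt proteins, had 0.303 and 0.188 in iXist-ChrX and 0.171 and 0.143 in SMCHD1 KO. Ebp, a sterol isomerase of cholesterol synthesis that lies next to Porcn, had 0.152 and 0.0763 against 0.0446 and 0.0435. These neighbours had the greatest negative differences among genes without overlap, 0.0884 and 0.0700 below the parental means. Syn1, which codes for the synaptic vesicle protein synapsin I, had 0.0875 and 0.0893 against 0 and 0.0417. Mcts1, a factor in translation re-initiation, had 0.0250 and 0.0556 and was listed at 0 in both SMCHD1 KO libraries. Gm364 had 0.0339 and 0.0732 against 0.0164 and 0.

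Genes that were higher in SMCHD1 KO lay close together at particular places on the chromosome. Between 70 and 75 Mb of the X chromosome 21 of 44 genes were higher in both SMCHD1 KO libraries, or 47.7%, and from 100 Mb to Xist 15 of 26 were, or 57.7%. These stretches hold 28.1% of the genes of the table and 52.2% of the higher ones. They also hold 21 of the 31 higher genes with an unadjusted p under 0.05. In the rest of the chromosome 33 of 179 genes were higher, or 18.4%, and 16 were lower. The stretches were chosen after the values were seen and so carry no test.

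Library medians, read from the same values, differed between the stretches and the rest. The median fraction between 70 and 75 Mb was 0.0371 and 0.0265 in iXist-ChrX and 0.0529 and 0.0748 in SMCHD1 KO. From 100 Mb to Xist it was 0.0607 and 0.0392 against 0.0765 and 0.114. In both stretches SMCHD1 KO replicate 1 lay above both parental libraries, which it did not do over the whole table. The stretches were chosen by genes of this kind in the same libraries, so the medians and counts given here are no separate support. Outside them the median was 0.0613 and 0.0424 in iXist-ChrX and 0.0498 and 0.0677 in SMCHD1 KO, so that replicate 1 lay between the parental libraries again. After centring, 28 of the 70 genes in the stretches were higher and 12 lower, against 18 higher and 54 lower among the other 179.

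Within these stretches the higher genes often followed one another directly. A run of 4 neighbouring measured genes with no overlap held Awat2, Igbp1, Pdzd11 and Kif4, and another run of 4 held Pin4, Ercc6l, Rps4x and Hdac8. Ercc6l, a DNA translocase that binds fine DNA bridges in anaphase, was at 0.0682 and 0.0402 in iXist-ChrX and at 0.115 and 0.135 in SMCHD1 KO. Hdac8, the deacetylase of the cohesin subunit SMC3, was at 0.0616 and 0.0379 against 0.0847 and 0.127. There were 4 further runs of 3 higher genes in the whole table, most of them outside the stretches, and no run of 3 lower genes.

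**Figure D3:**
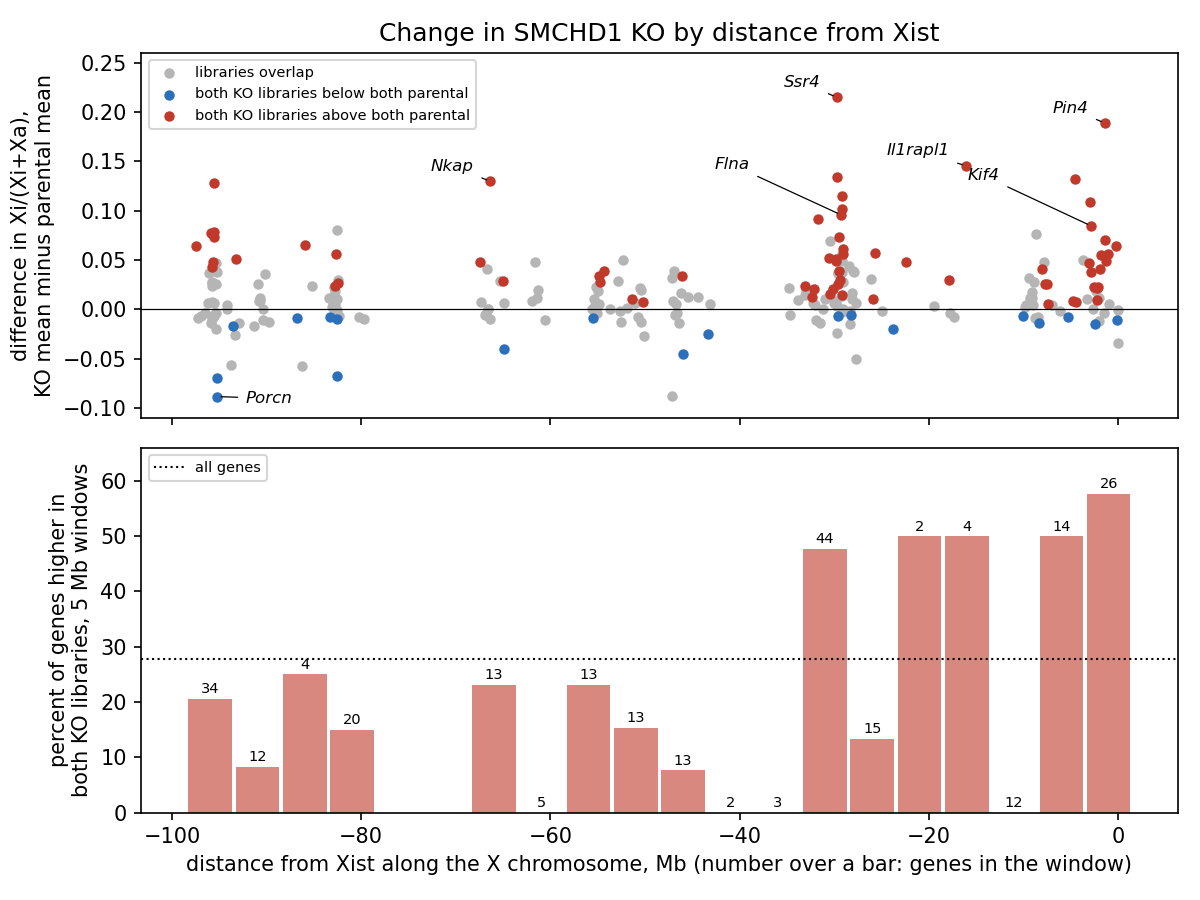
The upper panel plots the difference in mean Xi/(Xi+Xa), SMCHD1 KO minus iXist-ChrX, of each of 249 genes against its distance from Xist in Mb, coloured by whether the libraries overlap. The lower panel gives, for each 5 Mb window, the percent of its genes with both SMCHD1 KO libraries above both parental ones, with the number of genes over the bar and the 27.7% of all genes as a dotted line. The windows nearest Xist (57.7% of 26 genes) and about 30 Mb from it (47.7% of 44 genes) stand above the line, and the other windows above it, at 50%, hold at most 14 genes.

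A test by position took the median log2 odds of each 10 Mb window in each library, so that neighbouring genes do not count as replicates. No window of 11 was called at an adjusted p under 0.05 by limma (0%), and 1 had an unadjusted p under 0.05. That window was the one from 100 Mb, with 26 genes that end at Xist and its antisense partner Tsix. Its difference was 0.88 in log2 odds (SE 0.39, 95% interval 0.11 to 1.66, adjusted p = 0.283 by limma). It was called with centred libraries, at an adjusted p of 0.0237 and a difference of 0.51, and with a replicate block, at 0.0308. Without SMCHD1 KO replicate 2 its difference was 0.59 with an adjusted p of 0.980. The window from 70 Mb came second with 0.62 in log2 odds over 59 genes, and the 5 genes between 60 and 70 Mb were the only group with a negative value, at -0.15. Across all genes the difference in log2 odds had a Spearman's rho of -0.22 with the distance from Xist and of 0.14 with the difference of the next gene along the chromosome. For the difference in fraction these values were -0.16 and 0.05.

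Distance from Xist alone did not order the windows. The 12 genes between 90 and 95 Mb included no higher gene and 1 lower one, although they lie nearer to Xist than the stretch at 70 Mb. Between 50 and 60 Mb 3 of 26 genes were higher, and between 10 and 20 Mb 2 of 16. The window from 10 Mb had the smallest median difference in fraction, 0.00448, although it held Fundc1, a mitophagy receptor with 0.121 and 0.112 against 0.189 and 0.175.

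By length, the longest genes gave the lowest count of higher genes, which was not tested. The length column of the authors' table equals the span of the gene except for 14 genes, and the quartiles of length held 18, 20, 19 and 12 higher genes from the shortest to the longest, or 28.6%, 32.3%, 30.6% and 19.4%. Lower genes numbered 3, 2, 6 and 8 in the same order. The median difference in fraction was 0.0217 in the shortest quartile and 0.00585 in the longest. After centring, 5 genes of the longest quartile were higher and 23 lower, against 16 and 11 in the shortest.

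The relation with length was weak and moved with the libraries chosen. Spearman's rho between length and the log2 odds difference was -0.13 across 249 genes, and it ran from -0.19 to -0.05 over the 4 pairs of a SMCHD1 KO with a parental library. Between the replicates of iXist-ChrX, where no SMCHD1 was lost, it was -0.13 as well, and between those of SMCHD1 KO it was 0.03. Longer genes were also more silent in Halo-SMCHD1 at day 7, with a rho of -0.19 between length and fraction. Dmd, which codes for dystrophin and has the greatest length in the table, 2256 kb, had 0.0216 and 0.0195 in iXist-ChrX and 0.0194 and 0.0290 in SMCHD1 KO. Tenm1, a teneurin of neuronal cells with a length of 742 kb, had 0.0254 and 0.0526 against 0.0417 and 0.0156. At the short end Rpl10, a ribosomal protein gene, had 0.336 and 0.256 against 0.331 and 0.373, and its libraries overlapped. Length and position were not separated, since the median length was 19.3 kb in the stretches rich in higher genes and 34.8 kb elsewhere.

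**Figure D4:**
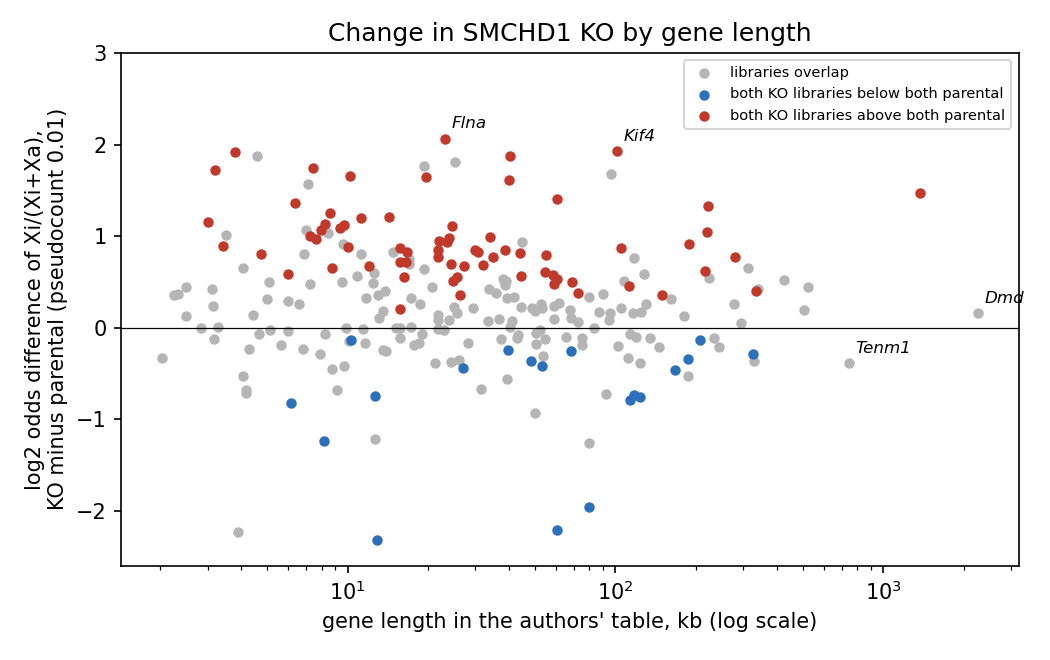
The plot sets the log2 odds difference of each of 249 genes, SMCHD1 KO minus iXist-ChrX, against the gene length in kb on a log axis, coloured by whether the libraries overlap. The cloud spans the same range of differences at most lengths, with Flna at 2.06, Kif4 at 1.93 and the 2256 kb Dmd at 0.16, and Spearman's rho is -0.13.

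The libraries of the lines overlapped for every escape gene in the table, as they did for 161 of all 249 genes. Of 9 measured genes known to escape X inactivation in mouse, none lay above or below in both SMCHD1 KO libraries, beside 27.7% above and 7.63% below over all genes. The 95% interval of the log2 odds difference lay within 1 either way for 7 of them and for 26 of all 249 genes. Kdm6a, a demethylase of lysine 27 of histone H3, had 0.335 and 0.288 in iXist-ChrX and 0.338 and 0.333 in SMCHD1 KO. Eif2s3x, a subunit of translation initiation factor 2, had 0.239 and 0.223 against 0.252 and 0.233. Its interval ran from -0.37 to 0.55 in log2 odds, so that a change as great as that of Flna lies outside it. Ddx3x, an RNA helicase, had 0.173 and 0.130 against 0.171 and 0.205, and Utp14a, a factor in ribosome assembly, had 0.298 and 0.244 against 0.263 and 0.325. Firre, a long non-coding RNA gene, had 0.108 and 0.169 against 0.165 and 0.171, and Med14, a subunit of Mediator, had 0.0711 and 0.0522 against 0.0617 and 0.0781. These 6 had a higher mean in SMCHD1 KO and the other 3 a lower one. The greatest move of the 9 was that of 4933407K13Rik, with 0.0909 and 0.197 against 0.0891 and 0.0987, a difference of -0.0502. Usp9x, a deubiquitinase, had 0.0915 and 0.0699 against 0.0585 and 0.0817, and Shroom4, an actin-binding protein, had 0.0786 and 0.0395 against 0.0426 and 0.0619. The parental means of Shroom4, Med14 and Usp9x were 0.0590, 0.0617 and 0.0807, beside a median of 0.0498 over all genes. Not every gene named as escaping thus stood far above the table here. After centring, 4 of the 9 were lower in both SMCHD1 KO libraries and the difference of all 9 was below 0, with a median of -0.21 in log2 odds against -0.11 over all genes.

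None of the 3 measured genes of the X-inactivation centre had a higher mean in SMCHD1 KO, beside 172 of all 249 genes. The libraries of Xist and Tsix overlapped. Xist itself, whose RNA comes from the Xi, was at 0.999 and 0.998 in iXist-ChrX and at 0.999 and 0.998 in SMCHD1 KO. Its fraction was so near its upper limit that a rise could hardly show. Tsix, which runs antisense through Xist, had 0.224 and 0.0996 against 0.0954 and 0.161, and the reads were counted by strand. Chic1, a neighbour of Xist, had 0.0656 and 0.0653 against 0.0563 and 0.0527, which puts it among the 19 lower genes. Chic1 lies in the same window as Kif4 and Pin4 but, with a difference of -0.0109, did not share the direction of that window.

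Of the 10 genes at 0.3 or more in both lines Pin4 was without overlap, and those described next overlapped. Ube2a, a ubiquitin-conjugating enzyme, and C330007P06Rik beside it were at 1 in all 4 libraries and at 1 in the uninduced Halo-SMCHD1 library, so their fraction could not show silencing. Dynlt3, a light chain of the dynein motor, had 0.833 and 0.777 against 0.787 and 0.711 and was at 0.869 uninduced. Slc25a5, the ADP/ATP carrier of mitochondria, had 0.408 and 0.574 against 0.534 and 0.529. Nono, an RNA-binding protein of paraspeckles, had 0.373 and 0.277 against 0.345 and 0.281, and its interval of -0.94 to 0.81 in log2 odds kept within 1 either way. Wdr44, which binds the GTPase RAB11, had 0.370 and 0.294 against 0.375 and 0.270. Pnma5 had 0.273 and 0.393 against 0.471 and 0.333.

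At the other end, 89 genes had a mean under 0.05 in both lines, and the libraries of 63 of them overlapped. For 31 genes both means were under 0.02, and Smarca1, Igsf1 and Ubl4 were listed at 0 in all 4 libraries. Counting all levels, 26 genes had a 95% interval within 1 log2 odds either way, among them Dmd, Xist and Pola1, the catalytic subunit of DNA polymerase alpha. For the remaining overlapping genes the interval reached 1 log2 odds or more on at least 1 side, so that a change of that size could not be set aside.

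Genes grouped by function can be read against the 27.7% of the table that was higher and the 7.63% that was lower. Chromatin and transcription regulators had 10 higher and 0 lower of 25, led by Nkap and by Hcfc1, a co-factor of chromatin-modifying complexes with 0.100 and 0.0701 in iXist-ChrX and 0.131 and 0.185 in SMCHD1 KO, and the kinase and phosphatase list had 6 higher and 1 lower of 14. In mitochondria and metabolism 11 of 28 were higher and 4 lower, led by Ssr4 and Idh3g, and in the ubiquitin pathway 4 of 11 were higher, led by Otud5, a deubiquitinase. The list of RNA binding and splicing had 4 higher and 1 lower of 19, and cytoskeleton and cell adhesion 5 higher, with Flna the only one called, and 2 lower of 23. Of 9 genes for mitosis and chromosome structure, Kif4 and Ercc6l were higher and none lower, and Kif4 was called. The median log2 odds difference was between 0.16 and 0.45 in these 7 lists, beside 0.26 over all genes. After centring the 7 medians lay between -0.21 and 0.08, with 6 higher and 4 lower chromatin genes, 4 and 4 of the kinase list, 11 and 9 of metabolism, 2 and 2 of the ubiquitin pathway, 3 and 3 of RNA binding, 4 and 9 of cytoskeleton and adhesion, and 2 and 4 of mitosis. These counts carry no test of a list against the rest of the table.

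The relation with the level before full silencing differed by scale. Spearman's rho between the log2 odds difference and the fraction in Halo-SMCHD1, which shares no library with the contrast, was 0.08 for day 7 and 0.11 for 24 h of doxycycline across 249 genes. For the difference in fraction it was 0.27 and 0.26, and the median difference was 0.00368 in the quartile of genes most silent in Halo-SMCHD1 at day 7 and 0.0294 in the least silent one. The quartile of genes most silent in Halo-SMCHD1 at day 7 held 12 higher and 10 lower genes, and the other quartiles held 21, 19 and 17 higher and 3, 4 and 2 lower ones. After centring the higher genes numbered 8, 14, 12 and 12 and the lower ones 21, 17, 16 and 12, from the most to the least silent quartile.

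The per-gene change in SMCHD1 KO was set beside that of 3 lines made from Halo-SMCHD1, each against Halo-SMCHD1 at day 7. E147A and Y353C carry a point mutation in the ATPase domain of SMCHD1 on both alleles, and LRIF1 KO lacks LRIF1, a partner that brings SMCHD1 to chromatin. These 3 comparisons share the Halo-SMCHD1 libraries with each other and none with SMCHD1 KO or iXist-ChrX. Spearman's rho with the log2 odds difference of SMCHD1 KO was 0.18 for E147A, 0.17 for Y353C and 0.28 for LRIF1 KO across 249 genes.

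The genes that were higher in SMCHD1 KO were mostly higher in these lines as well, as were most genes of the table. In E147A 66 of the 69 had a higher mean than in Halo-SMCHD1, or 95.7%, against 88.0% of all 249. The share was 91.3% against 80.7% in Y353C and 78.3% against 67.1% in LRIF1 KO. The median difference of the 69 genes was 0.0514 in E147A, 0.0293 in Y353C and 0.0136 in LRIF1 KO, beside 0.0368, 0.0181 and 0.00759 over all genes. Flna differed from Halo-SMCHD1 by 0.0820 in E147A, 0.0663 in Y353C and 0.0379 in LRIF1 KO. Kif4 differed by 0.0887, 0.0574 and 0.0268 in the same order. Both genes called in SMCHD1 KO thus had the same sign in the other 3 lines.

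Some genes had unlike values in SMCHD1 KO and the other lines. Pin4 was 0.189 above its parental line in SMCHD1 KO, but the same gene gave -0.0562 for E147A minus Halo-SMCHD1 and -0.0961 for Y353C minus Halo-SMCHD1. The difference between its changes was 1.48 in log2 odds for E147A (SE 0.65, adjusted p = 0.579 by limma) and 1.74 for Y353C (SE 0.65, adjusted p = 0.744 by limma), and did not pass. By the test of the difference itself, 1 of 249 genes was called between SMCHD1 KO and E147A (0.402%), 1 between SMCHD1 KO and Y353C (0.402%) and 0 between SMCHD1 KO and LRIF1 KO (0%). Unadjusted p-values under 0.05 by limma numbered 18, 14 and 6.

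The gene called in both was Spin4, which codes for a protein of the spindlin family of histone readers. It had 0.0164 and 0 in iXist-ChrX and was listed at 0 in both SMCHD1 KO libraries. It was also listed at 0 in all 3 Halo-SMCHD1 libraries at day 7 and in both LRIF1 KO libraries. The E147A libraries had 0.0625 and 0.0714 and the Y353C libraries 0.0227 and 0.0333. No library of SMCHD1 KO, Halo-SMCHD1 or LRIF1 KO had Xi reads of Spin4 at day 7 and all 4 libraries of E147A and Y353C did. G137E, also mutated in the ATPase domain, was listed at 0 in all its libraries of days 5 and 7. Halo-SMCHD1 at day 5 had 0.0556 and 0.05. The difference between the changes was -3.75 in log2 odds for E147A (SE 0.46, adjusted p = 0.000485 by limma). For Y353C it was -2.67 (SE 0.46, adjusted p = 0.0164 by limma). Groups listed at 0 in every library, such as SMCHD1 KO and G137E, add no spread to the shared estimate behind these SEs. Over 13 alternatives the adjusted p ran from 1.21e-06 to 0.148 for E147A, where 12 passed, and from 2.67e-05 to 0.935 for Y353C, where 5 passed.

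**Figure D5:**
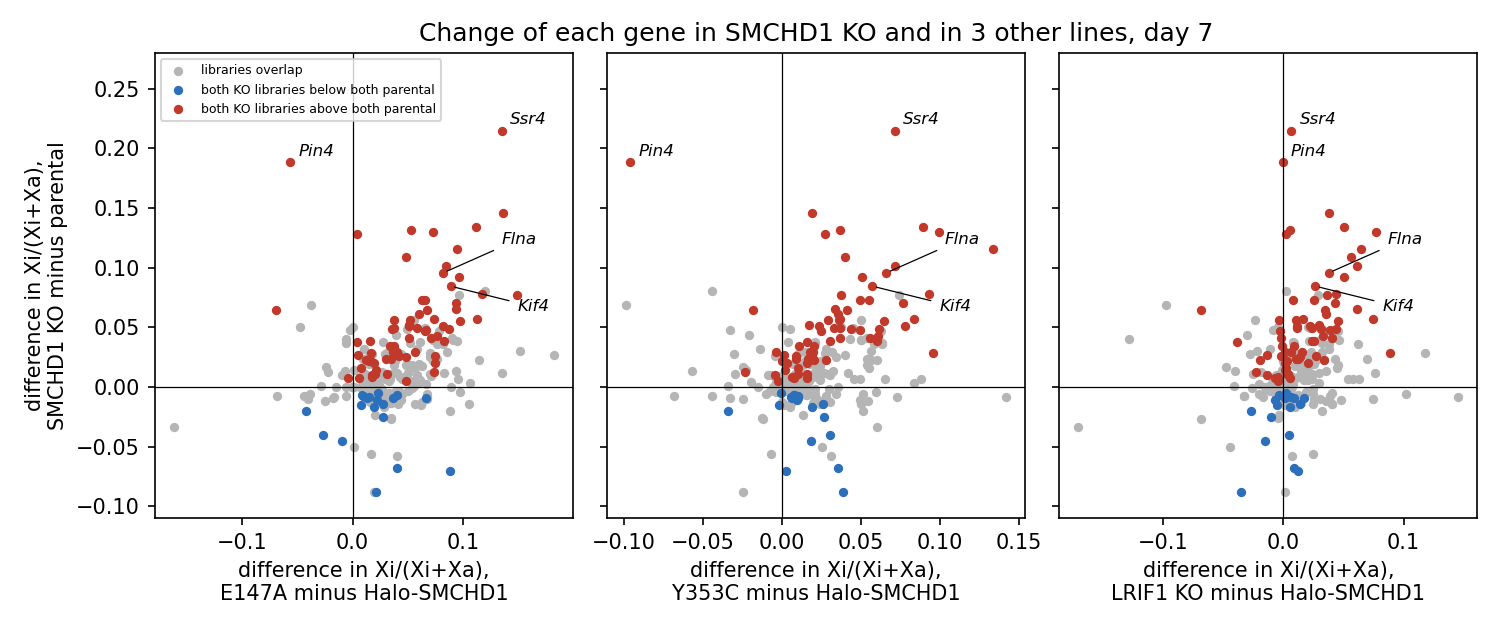
Each panel plots, for 249 genes, the difference in mean Xi/(Xi+Xa) of SMCHD1 KO minus iXist-ChrX (y axis) against that of E147A, Y353C or LRIF1 KO minus Halo-SMCHD1 (x axis), coloured by whether the SMCHD1 KO and parental libraries overlap. Flna and Kif4 lie to the right of 0 in all 3 panels, and Pin4 lies to the left of 0 for E147A (-0.0562) and Y353C (-0.0961).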

How the data were processed

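Per the labels and the study's methods, the authors discarded rRNA (Bowtie2), mapped to mm10 with strain SNPs masked (STAR), separated the alleles (SNPsplit), counted by strand (featureCounts) and kept genes with 10 or more SNP-informative reads. What they deposited is a fraction, Xi/(Xi+Xa), per gene and library, not normalised between libraries and without counts, so depth, counting intervals and floors cannot be given.

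Fractions were turned into log2((r + 0.01)/(1 - r + 0.01)) and fitted with limma 3.58.1 (R 4.3.3) over the 20 differentiated libraries, with Benjamini-Hochberg adjustment over 249 genes or 11 windows and a threshold of 0.05. Python 3.11.15 with pandas 2.3.3, scipy 1.17.1 and matplotlib 3.10.9 gave the rest. limma was tested on simulated data. No 2 libraries of the table were identical. A table without SMCHD1 KO was not used here.

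Genes named were taken from those called, the 12 greatest positive and 5 greatest negative differences without overlap, the 8 highest levels, the extremes of each list, window and length, the measured escape and X-inactivation centre genes, and a few fixed by name. Hdac8, Smarca1, Igsf1, Ubl4, Pola1, Zfx, Nono and the members of runs were named after their values were seen. The comparison, the gene lists and the tests were chosen with earlier results of these data known. Alternatives covered pseudocounts, untransformed fractions, centring, gene filters, window sizes, variance settings, the libraries fitted, a replicate block and each library left out. The longest run of neighbouring higher genes was left out, since a gene in it is not reported here.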

Additional observations from a re-analysis of the deposited data

Results flagged for a closer look

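Spin4 was the gene whose change differed by test between SMCHD1 KO and the ATPase mutants E147A and Y353C. The difference between its change in SMCHD1 KO and that in E147A was -3.75 in log2 odds, and that between SMCHD1 KO and Y353C was -2.67. The E147A difference was no longer called with the libraries compared alone, and the filter on a mean of 0.02 removed the gene. The Y353C difference passed in 5 of 13 alternatives, and those in which it did not were a pseudocount of 0.05, fractions without a transform, both kinds of block, centring, robust and trended variances, the libraries compared alone, and the fit without SMCHD1 KO replicate 2. Its level in SMCHD1 KO was 0 in both libraries. Without iXist-ChrX replicate 1 the difference was -3.04 for E147A and -1.95 for Y353C, and without iXist-ChrX replicate 2 it was -4.46 and -3.38. It moved with the pseudocount, being -8.26 with 0.001 and -1.54 with 0.05 for E147A. Whether few reads cover this gene was not tested, as the fractions come without counts.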

How the results depend on the processing

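The number of genes called between SMCHD1 KO and iXist-ChrX (2) became 4 with a pseudocount of 0.05, 6 on untransformed fractions, 0 with only the libraries compared and 0 with centred libraries, and from 0 to 4 with each replicate left out. At an unadjusted p under 0.05 by limma there were 22 with only the libraries compared, 25 when centred and 13 without SMCHD1 KO replicate 2, which gave the 0. The 4 came without SMCHD1 KO replicate 1, 3 without iXist-ChrX replicate 1, and 1, which was Spin4 and lower, without iXist-ChrX replicate 2. Without SMCHD1 KO replicate 1, 6330419J24Rik was called in all 4 tests across genes. Leaving a library out assumes that the lone sample varies like the other groups. Genes whose change differed from E147A (1) became 0 with only the libraries compared and 0 with a mean of at least 0.02, and from 1 to 2 with each replicate left out. Those that differed from Y353C (1) became 0 with a pseudocount of 0.05, untransformed fractions, the replicate block, only the libraries compared, centring, a mean of at least 0.02 and robust and trended variances, and from 0 to 2 with each replicate left out. Those that differed from LRIF1 KO (0) became 1 with a pseudocount of 0.05, which was Pdzd11, and from 0 to 1 with each replicate left out. Windows called (0) became 1 with the replicate block and 1 with centred libraries. Genes higher in both SMCHD1 KO libraries (69) ranged from 81 to 151 with each replicate left out, a looser rule under which the count cannot fall.

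Same-numbered libraries deviated in opposite directions (r = -0.277 across 249 genes). A single correlation from 2 libraries a line cannot tell whether the numbers pair the samples. The replicate block gave 2 called genes and 82 genes higher within both numbers, and it left out the E147A library that has no matched number. A crossed replicate block, chosen after seeing the data, gave 2 called genes, 1 called window and 0 genes that differed from Y353C. Of the results for single genes, 236 kept their side of the threshold, 7 came to pass, 8 no longer passed and 0 reversed. The cause of these changes was not tested. Depth is unknown and limits every value near 0.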
